A study of Mus musculus with 8 samples.

Results

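Small nucleolar RNAs (snoRNAs) were read on 8 Affymetrix arrays of mouse embryonic fibroblasts. They were taken as every gene whose symbol begins with Snord or Snora followed by a digit and whose probe set, the group of array probes that reports a gene, carries that symbol alone. The rule found 73 of 22180 named genes, of which 47 were box C/D snoRNAs (Snord) and 26 were box H/ACA snoRNAs (Snora). They came from 75 probe sets, since Snora19 and Snora33 had 2 each, and the probe set with the higher mean over the 8 arrays was used. The 2 probe sets of Snora19 held identical values, whereas those of Snora33 averaged 12.48 and 4.56. U3, listed as Rnu3a, and the Cajal body RNAs do not match the rule and are given beside the snoRNAs further on.

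All cells were STING-/-, lacking the mouse gene for STING, the adaptor that passes on the signal of DNA in the cytosol. Per the labels, 1 population had received the empty vector pBabe and the other 3 had been reconstituted with hSTING, with N154S, which the design text ties to the disease SAVI, or with R284S. The labels call the cells primary and do not name the promoter that drives the constructs. Each of the 4 constructs had 1 control array and 1 array of cells given double-stranded DNA (dsDNA) with Lipofectamine 2000 for 9 h. The labels do not say whether control cells received the reagent without DNA. No construct and treatment was repeated, so a difference between 2 arrays has no replicate check.

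Box C/D snoRNAs guide the methylation of ribose in ribosomal RNA through the enzyme fibrillarin, and box H/ACA snoRNAs guide the conversion of uridine to pseudouridine through the enzyme dyskerin. A few of both classes instead help to cut the ribosomal RNA precursor. Most mammalian snoRNAs are trimmed from introns of a host gene, and many hosts are genes of ribosomal proteins, of ribosome assembly or of non-coding RNAs that carry several snoRNAs. Many such hosts begin transcription with a C followed by a run of pyrimidines, a start that is known from the genes of ribosomal proteins.

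The starts of 5 non-coding hosts whose snoRNAs recur in the results are shown because they are the shared upstream sequence of those snoRNAs. Each is 100 bases of the GRCm38.p6 assembly from the RefSeq promoter table, 50 before and 50 from the annotated start, and capitals mark a run of 6 or more C and T beginning with C within 3 bases of that start. Snhg12, the host of Snora16a, Snora44, Snora61 and Snord99, is shown from chr4:132308628-132308727, plus strand.
Snhg12: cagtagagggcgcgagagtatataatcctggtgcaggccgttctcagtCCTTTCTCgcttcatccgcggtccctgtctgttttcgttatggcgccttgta
The host of Snord49a, Snord49b and Snord65 is shown from chr11:62602827-62602926, plus strand, and that of Snord22 from chr19:8723437-8723536, plus strand.
2410006H16Rik: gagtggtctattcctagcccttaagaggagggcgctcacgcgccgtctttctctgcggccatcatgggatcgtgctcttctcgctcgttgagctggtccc
Snhg1: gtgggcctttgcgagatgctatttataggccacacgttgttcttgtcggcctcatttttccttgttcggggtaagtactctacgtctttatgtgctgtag
The host of Snord52 is shown from chr17:34952422-34952521, minus strand, and that of Snord123 from chr15:32244613-32244712, minus strand.
1110038B12Rik: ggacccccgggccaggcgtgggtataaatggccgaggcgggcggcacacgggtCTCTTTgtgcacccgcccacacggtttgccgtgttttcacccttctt
Snhg18: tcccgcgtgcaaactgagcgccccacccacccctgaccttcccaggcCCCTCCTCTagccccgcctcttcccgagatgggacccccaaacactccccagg
Such a run was found in 4 of 8 non-coding hosts of snoRNAs, in 4 of 32 protein-coding hosts (12.5%) and in 2304 of all 27025 genes of the table (8.53%). The search covered the transcribed strand only, and a match is a description of the letters.

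The arrays themselves were close in scale, with medians over named genes of 4.42 to 4.47. The gap between equally ranked values of any 2 arrays was at most 0.25. All 10 fibroblast markers read above the array median on every array, between 6.61 and 12.80. The 5 macrophage markers had medians between 3.12 and 3.30, with 1 to 2 of 5 above the array median, Cd68 among them at 5.77 to 6.52. Of 3 measured epithelial markers 1 was above it, Krt8 at 4.77 to 5.32, and of 4 endothelial markers 1 to 2 were. The endogenous gene Sting1 read 3.68 to 4.22, also below the median on every array, and since no source used here names the deleted part, it does not check the labels.

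Of the 73 snoRNAs, 61 had a mean log2 signal at or above the median of gene means (4.45), and 12 lay below it, 6 of each class. Signals of different probe sets are not levels of different RNAs, so the classes are set against themselves on other arrays and not against each other. Across the 4 control arrays in the order vector, hSTING, N154S and R284S, the box C/D median was 7.95, 8.02, 7.37 and 7.71. Across the dsDNA arrays in the same order it was 7.59, 7.71, 7.60 and 7.63. The N154S control array thus had the lowest box C/D median of the 8. The box H/ACA median was 6.63, 6.84, 6.34 and 6.66 in control cells and 6.25, 6.66, 6.01 and 5.71 with dsDNA.

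**Figure D1:**
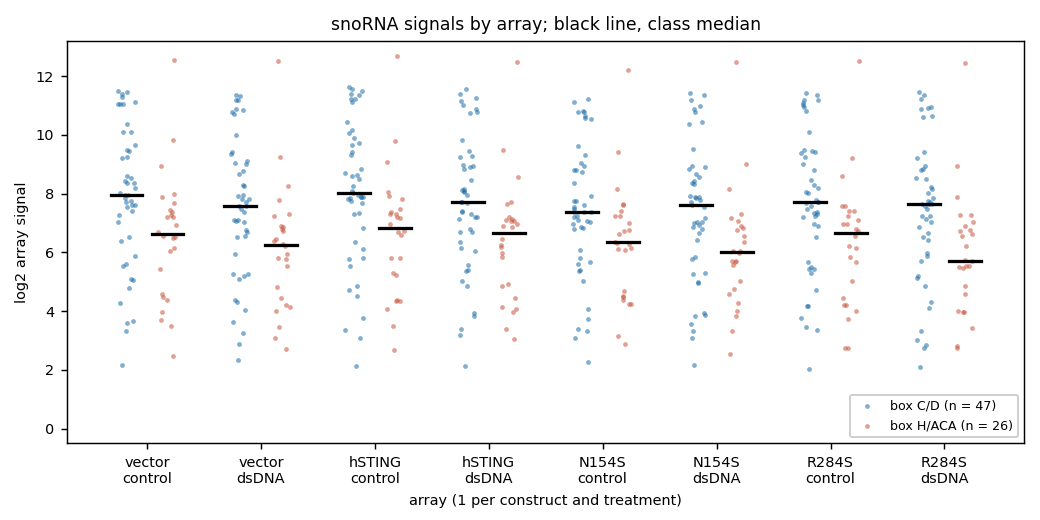
Log2 array signal of each of the 73 snoRNAs on the 8 arrays, by construct and treatment; points are box C/D (blue) or box H/ACA (red) snoRNAs and black lines are class medians. The box C/D median is 7.95 on the vector control array and 7.37 on the N154S control array, and the box H/ACA median is lower with dsDNA than without it in all 4 constructs.

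With dsDNA, most snoRNAs read lower than in control cells of the same construct, and none passed the test across all genes. In vector cells, which lack STING, 65 of 73 read lower against 48.4% of all genes, with a median log2 difference of -0.38. In hSTING cells 61 read lower against 50.5% of all genes, with a median of -0.37. In R284S cells 61 read lower against 48.0%, with a median of -0.26. In N154S cells 46 read lower against 51.6% of all genes, with a median of -0.10. There 63.2% of other genes of like signal also read lower, so the N154S count was no higher than theirs, whereas in vector, hSTING and R284S cells their shares were 41.9%, 58.5% and 50.2%. The lower readings were thus present in the line without STING and least marked in N154S cells, in which the control array was already low.

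By class, the box C/D medians of these differences were -0.43 in vector, -0.42 in hSTING, -0.07 in N154S and -0.23 in R284S cells. The box H/ACA medians were -0.34, -0.30, -0.29 and -0.29 in the same order. The classes therefore differed most in N154S cells, where 27 of 47 box C/D and 19 of 26 box H/ACA snoRNAs read lower. Other genes whose signals lay within the same range as the middle of the snoRNAs had medians of 0.03, -0.08, -0.07 and -0.01 in the 4 constructs. In N154S cells the box C/D median thus matched that of such genes, of which 61.8% were lower, while in the other 3 constructs both class medians lay further below 0 than theirs. The difference between the classes was not tested. A mean signal of 8 or more was reached by 20 of 47 box C/D but 3 of 26 box H/ACA snoRNAs. Class and signal therefore cannot be told apart here or in the comparisons of constructs below.

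**Figure D2:**
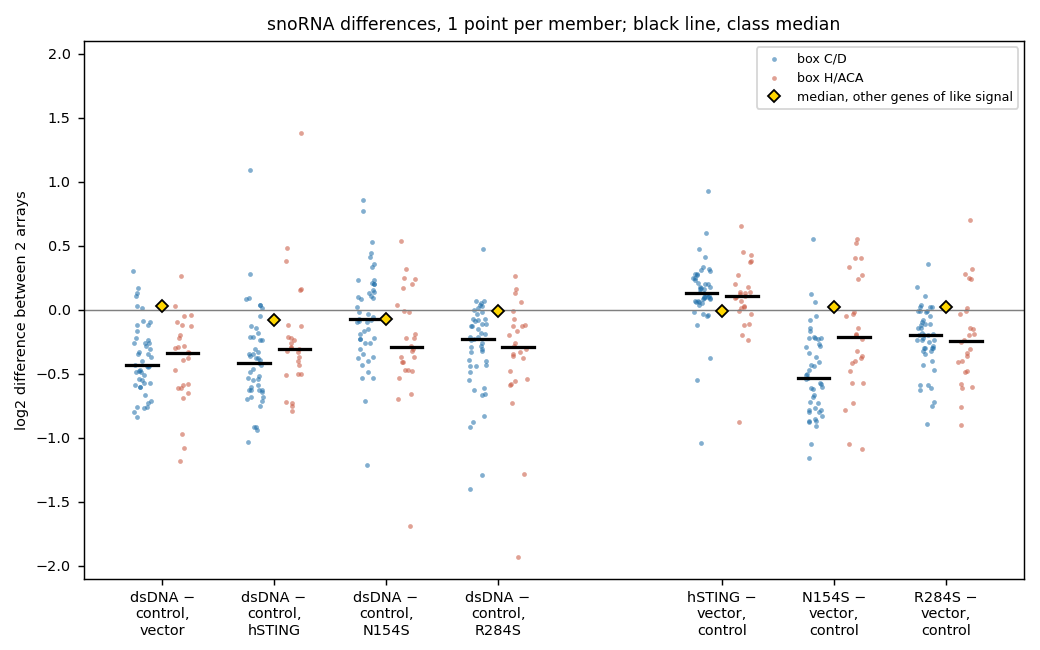
Log2 difference between 2 arrays for each snoRNA (1 point each): dsDNA minus control in each construct on the left, and each construct minus vector among control arrays on the right; black lines are class medians, and yellow diamonds are medians of other genes of like signal. Box C/D medians lie at -0.43 in vector cells with dsDNA and at -0.53 in N154S control cells, while the diamonds lie between -0.08 and 0.03.

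In all 4 constructs, 33 snoRNAs (20 box C/D and 13 box H/ACA) read lower with dsDNA, against 10.4% of all genes, and 0 read higher in all 4, against 9.82%. Over vector, hSTING and R284S cells alone, 48 read lower in each, against 15.0%. For 7 snoRNAs all 4 dsDNA arrays lay below all 4 control arrays, as for 1.67% of all genes, and for 0 they lay above, as for 1.83%. These 7 were Snora31, Snora61, Snord13, Snord17, Snord52, Snord71 and Snord73b, of which only Snord13 falls under the rule for named genes.

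The limma fit over the 4 pairs, with Benjamini-Hochberg adjustment over all genes, called 0 of 73 snoRNAs and 0.0% of all genes for dsDNA. The fitted difference was below 0 for 65 snoRNAs and for 50.1% of all genes, with a median of -0.30 for the snoRNAs and 0.00 for all genes. At an unadjusted p under 0.05, 34 snoRNAs (22 box C/D and 12 box H/ACA) were lower against 5.34% of all genes, and 0 were higher against 5.46%. The smallest limma adjusted p of a snoRNA was 0.378.

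That value belonged to Snord13 (U13), a box C/D snoRNA with its own gene that acts on the small-subunit ribosomal RNA. It read 7.41, 7.74, 7.36 and 7.33 in vector, hSTING, N154S and R284S control cells and 6.70, 6.71, 6.65 and 6.41 with dsDNA. Every dsDNA array was below every control array. The fitted difference was -0.84 (SE 0.0950, limma unadjusted p 4.58e-05), and the 4 separate differences were -0.71, -1.03, -0.71 and -0.92. Among all 22180 genes, 4 (0.018%) read lower by 0.5 or more in all 4 constructs, and Snord13 was the only snoRNA among them. The cut of 0.5 was no planned one, so the count is a description.

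Snord118 (U8), which acts in the processing of the large-subunit ribosomal RNAs and also has its own gene, read 5.52, 5.80, 5.35 and 5.30 in control cells and 5.26, 5.56, 5.0 and 4.87 with dsDNA. It was lower in each construct, by 0.24 to 0.43, but the ranges of the 2 treatments overlapped, and its fitted difference was -0.32 (SE 0.0844, limma adjusted p 0.448). Snord89, the third snoRNA that lay inside no other gene, was named after its values were seen. It read lower by 0.84 in vector and 0.68 in hSTING cells, and by 0.06 in N154S and 0.11 in R284S cells. Its readings with dsDNA, 7.04 to 7.25, were alike in all 4 lines, while its control readings ranged from 7.10 to 7.95.

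Among guides lodged in protein-coding hosts, Snora15 read 7.36, 7.16, 6.27 and 6.78 in control cells and 6.28, 6.44, 5.99 and 5.50 with dsDNA. It was lower in each construct, 2-fold or more in vector and R284S cells, with a fitted difference of -0.84 (SE 0.164, limma adjusted p 0.448). Snord69 read 9.67, 9.88, 8.80 and 9.43 in control cells and 9.10, 8.94, 8.31 and 8.14 with dsDNA. It lies in Gnl3, the gene of a nucleolar GTP-binding protein, and was also lower in each construct, by 1.29 in R284S cells. Snord19, from the same gene, differed by -1.21 in N154S cells but by 0.28 in hSTING cells, from 4.73 to 5.01.

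Of the guides from non-coding hosts, Snord49a differed with dsDNA by -0.76, -0.92, -0.26 and -0.88, in vector, hSTING, N154S and R284S order. Snord22 (U22), which acts in small-subunit ribosomal RNA processing, differed by -0.67, -0.60, -0.15 and -0.63. Snora73a and Snora73b (U17), which also act in that processing, were lower in each construct, by 0.20 to 0.48 and by 0.19 to 0.38. All 4 of these snoRNAs read lower with dsDNA in all 4 constructs, and none passed the limma test (each adjusted p 0.448 or above).

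**Figure D3:**
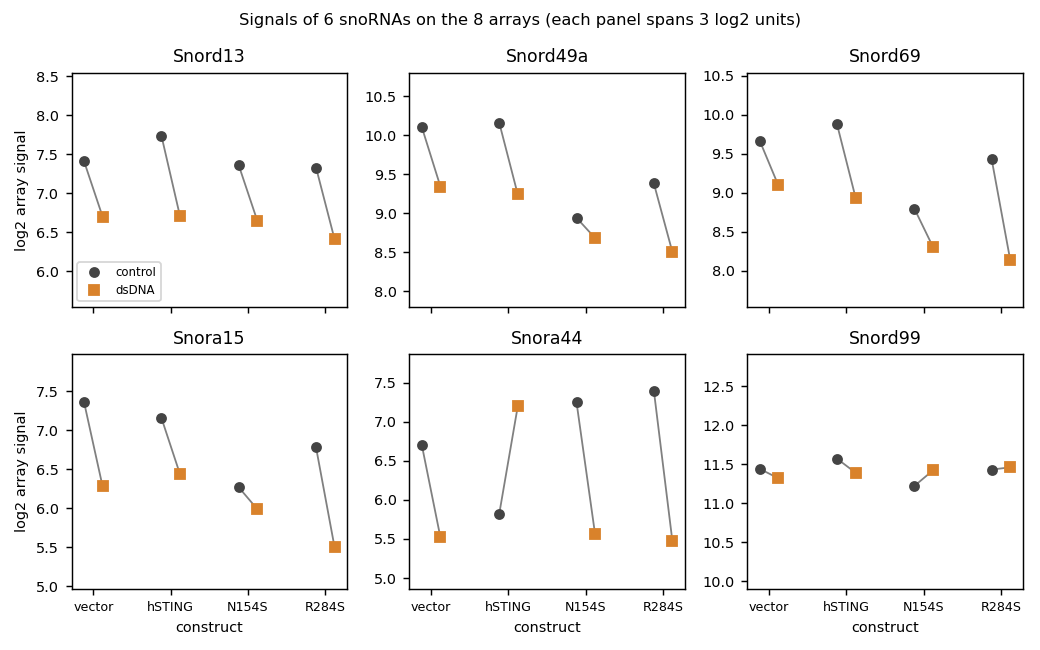
Log2 array signal of 6 snoRNAs by construct, with control as circles and dsDNA as squares joined within a construct; each panel spans the same number of log2 units. Snord13 is lower with dsDNA in all 4 constructs, Snora44 is higher with dsDNA in hSTING cells alone (5.82 to 7.20), and Snord99 stays between 11.22 and 11.57 on all 8 arrays.

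The snoRNAs of highest signal varied to unequal extents. Snora33 (12.22 to 12.68), Snord99 (11.22 to 11.57), Snord82 (11.11 to 11.62), Snord47 (10.81 to 11.38) and Snord87 (10.77 to 11.21) each varied by less than 0.6 over the 8 arrays. Snord49b, Snora21, Snora23, Snora62 and Snora16a, the others at the top of their class, varied by 0.64 to 1.19. By signal, the median dsDNA difference in vector cells was -0.17 for the 9 snoRNAs with a mean of 10 or above, -0.53 for the 14 between 8 and 10, -0.45 for the 38 between the median and 8, and -0.14 for the 12 below the median. In N154S against vector control cells the medians were -0.41, -0.78, -0.34 and -0.08 in the same order, and in N154S cells with dsDNA they were 0.20, -0.06, -0.24 and 0.03. The order of the signal ranges was therefore not the same in these comparisons.

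At 2-fold or more, counted only where the brighter array reached the median of its named genes, few snoRNAs differed between treatments. In vector cells 2 were lower (Snora15 and Snora44), against 0.185% of all genes in either direction. In N154S cells 2 were lower (Snora44 and Snord19), against 0.487%. In R284S cells 3 were lower (Snora44, Snora15 and Snord69), against 0.0676%. In hSTING cells Snord13 was lower while Snora44 and Snord88a were higher, against 2.51%. At 1.5-fold or more, 17 snoRNAs were lower in vector cells against 0.464% of all genes, 20 in hSTING cells against 3.53%, 5 in N154S cells against 1.08% and 11 in R284S cells against 0.388%. Snord88a is a dim probe set, reading 4.80, 3.76, 4.08 and 4.19 in control cells and 4.04, 4.85, 3.55 and 4.12 with dsDNA, with no order shared by the constructs.

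Snora44 went the opposite way in hSTING cells. It read 6.70, 5.82, 7.25 and 7.40 in vector, hSTING, N154S and R284S control cells and 5.52, 7.20, 5.56 and 5.47 with dsDNA. Thus it differed by -1.18, -1.69 and -1.93 in 3 constructs and by 1.38 in hSTING cells, where the control was the lowest and the dsDNA array the highest of its treatment. Only 2 of 22180 genes (0.00902%) read lower by 0.5 or more in those 3 constructs and higher by as much in hSTING cells, the other being Mir3961. This rule was no planned one and follows the pattern of Snora44 itself, so the count only describes it and lends it no weight. Each of these differences rests on 1 pair of arrays, and whether hSTING cells differed from the other constructs was not tested. The fitted dsDNA difference of Snora44 over all 4 constructs was -0.86 (SE 0.504, limma adjusted p 0.551).

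Among control cells, the 2 mutant lines read lower than vector and hSTING cells at most snoRNAs. Both mutants lay below both others for 54 of 73 (36 of 47 box C/D and 18 of 26 box H/ACA), against 21.1% of all genes. With dsDNA this held for 36 (21 and 15), against 15.8%. The control arrays are shared between these counts and the dsDNA differences, so the 2 sets of values are not independent.

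In N154S control cells, 63 of 73 snoRNAs read lower than in vector cells, against 49.0% of all genes. The median difference was -0.53 for box C/D (44 of 47 lower) and -0.21 for box H/ACA (19 of 26 lower), while other genes of like signal had a median of 0.02. At 2-fold or more 4 were lower and 0 higher, against 1.41% of all genes in either direction. These were Snord49a (2.23-fold), Snora15 (2.13-fold), Snord22 (2.07-fold) and Snora34 (2.07-fold). At 1.5-fold or more, 24 were lower (20 box C/D and 4 box H/ACA) and 0 higher, against 2.04% of all genes lower.

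Snord49a illustrates the pattern, reading 10.10 and 10.16 in vector and hSTING control cells but 8.94 and 9.38 in N154S and R284S control cells. With dsDNA it read 9.34, 9.24, 8.68 and 8.50, so both mutants were below both others in each treatment. Snord22 read 10.10, 10.06, 9.05 and 9.47 in control cells and 9.43, 9.46, 8.90 and 8.84 with dsDNA, in the same order. Snora34 read 7.69, 7.80, 6.64 and 7.09 in control cells and 6.72, 7.07, 6.89 and 6.74 with dsDNA, where the lines overlapped.

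Against hSTING control cells, N154S control cells were lower at 60 of 73 snoRNAs, against 46.6% of all genes. The median was -0.59 for box C/D and -0.37 for box H/ACA. At 2-fold or more 12 were lower (11 box C/D and Snora34) and 1, Snora44, was higher, against 0.753% of all genes in either direction. The 5 lowest of them were Snord92, Snord49a, Snora34, Snord37 and Snord11, by 2.69-fold, 2.33-fold, 2.23-fold, 2.19-fold and 2.16-fold. Snord92 and Snord37 are dim, with means of 3.67 and 4.0 over the 8 arrays. At 1.5-fold or more 32 were lower, against 1.42% of all genes.

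R284S control cells read lower than vector cells at 60 of 73 snoRNAs, against 49.1% of all genes, with medians of -0.20 for box C/D and -0.24 for box H/ACA. None was 2-fold apart, against 1.88% of all genes in either direction, and 10 were 1.5-fold or more lower, against 2.4% of all genes. Against hSTING control cells 67 read lower, against 46.9%, with medians of -0.36 in both classes. At 1.5-fold or more 12 were lower, against 1.94%. There Snora68 was 2.11-fold lower and Snora44 2.99-fold higher, against 1.19% of all genes at 2-fold or more.

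Between the mutants, R284S control cells read higher than N154S control cells at 39 of 47 box C/D snoRNAs, with a median of 0.27, whereas box H/ACA snoRNAs were divided, 12 higher and 13 lower, with a median of -0.005, against 48.7% of all genes lower. In either direction 0 were 2-fold apart, against 0.464% of all genes. At 1.5-fold or more 4 were higher, all box C/D, against 0.861%. The lower box C/D reading of N154S control cells therefore went further than that of R284S control cells. By signal, the median difference between the mutants was 0.29 for snoRNAs with a mean of 10 or above and 0.44 between 8 and 10. It was 0.075 between the median and 8 and -0.08 below the median. The sign of the box H/ACA median is not settled, since it turned with the centring of the arrays and with a filter on dim genes.

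hSTING control cells read higher than vector cells at 58 of 73 snoRNAs (39 box C/D and 19 box H/ACA) and lower at 15, against 51.3% of all genes lower. The medians were 0.13 and 0.10, and those of other genes of like signal were -0.01 and -0.02. At 2-fold or more only Snord88a differed, being lower, against 0.433% of all genes. With dsDNA, the box C/D medians against vector cells were 0.08 for hSTING, -0.14 for N154S and -0.08 for R284S, nearer to each other than among control cells. The box H/ACA medians were 0.19, -0.12 and -0.19.

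Over both treatments, the limma fit called 1 snoRNA in any comparison of constructs. Snora20, a box H/ACA guide in an intron of the chaperonin gene Tcp1, fell in R284S against vector cells by 0.70 on the log2 scale (SE 0.128, adjusted p 0.0457), where 1.02% of all genes were called lower and 1.02% higher. It read 3.50, 3.51, 3.14 and 2.74 in vector, hSTING, N154S and R284S control cells and 3.45, 3.38, 3.31 and 2.80 with dsDNA. The R284S arrays were the lowest in both treatments, but all 8 readings were below the array medians, and without the N154S arrays the adjusted p was 0.108. At an unadjusted p under 0.05, 17 snoRNAs were lower in R284S than in vector cells, against 6.8% of all genes, and 0 higher, against 7.47%. Snora68 came next for that comparison, at -0.79 (SE 0.150, limma adjusted p 0.0539). It read 6.56, 6.74, 6.08 and 5.66 in control cells and 6.22, 6.24, 6.06 and 5.54 with dsDNA, lowest in R284S in both treatments.

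For N154S against vector cells the limma fit called 0 of 73 snoRNAs, against 0.609% of all genes called lower and 0.708% higher. At an unadjusted p under 0.05, 24 were lower, against 7.99% of all genes, and 2 higher, against 6.87%. The smallest adjusted p was 0.0714, for Snord49a, with a fitted difference of -0.91 (SE 0.180). Snord22 followed at -0.79 (SE 0.159, limma adjusted p 0.0750) and Snord123 at -0.74 (SE 0.161, limma adjusted p 0.0924).

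Against hSTING cells the fit called 0 snoRNAs for N154S, where 0.0% of all genes were called, and 0 for R284S, where 0.442% were called lower and 0.509% higher. At an unadjusted p under 0.05, 39 and 23 snoRNAs were lower, against 4.41% and 5.89% of all genes, and 0 were higher in either comparison, against 4.49% and 7.8%. The smallest limma adjusted p was 0.109 for Snora74a (U19) in N154S, at -0.84 (SE 0.117), and 0.0565 for Snora68 in R284S. Snora74a read 6.93, 7.20, 6.36 and 6.57 in control cells and 6.46, 6.88, 6.04 and 6.21 with dsDNA, with both mutants below vector and hSTING cells in each treatment.

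The other comparisons gave fewer differences. For hSTING against vector cells the limma fit called 0 snoRNAs, against 0.0992% of all genes called higher, and 7 were higher at an unadjusted p under 0.05, against 4.46%, while 0 were lower, against 4.82%. For R284S against N154S cells 0 were called, against 0.00451% of all genes in each direction, and 1 was higher and 2 were lower at an unadjusted p under 0.05, against 3.68% and 3.39%. A separate limma fit of the dsDNA difference in the 3 STING lines against that in vector cells called 0 snoRNAs and 0.0% of all genes, with 2 snoRNAs higher and 0 lower at an unadjusted p under 0.05, against 2.14% and 1.46% of all genes. The smallest adjusted p there was 0.994. So no snoRNA had a detectable difference in dsDNA response between cells with and without STING, which does not show that they responded alike. The term pooled the 3 STING lines, so a response in hSTING cells alone would partly enter the residual. With dsDNA, 0.185%, 2.51%, 0.487% and 0.0676% of all genes were 2-fold or more apart in vector, hSTING, N154S and R284S cells.

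The snoRNAs were then read beside their host genes. By the RefSeq genes of GRCm38.p6, 64 of the 73 lay inside 1 other gene, 6 inside several and 3 (Snord13, Snord118 and Snord89) inside none. The gene table gives no strand, so a containing gene is called the host without a check of strand. A single host was measured for 55 snoRNAs, from 41 hosts.

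Hosts did not read lower as their snoRNAs did. The median fitted dsDNA difference was -0.29 for the 55 snoRNAs, 48 of them below 0, and -0.02 for the hosts, with 25 of 41 below 0. The snoRNA lay below its own host in 46 of 55 cases. In N154S against vector control cells the medians were -0.38 for snoRNAs, 46 of them lower, and 0.01 for hosts, with 20 of 41 lower. In R284S against vector control cells they were -0.20 and 0.02.

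Hosts that are long non-coding RNAs did read somewhat lower. For the 13 snoRNAs in 7 such hosts the median dsDNA difference was -0.39, all 13 below 0, and that of the hosts was -0.20, with 6 of 7 below 0. For the 42 snoRNAs in 34 protein-coding hosts it was -0.20, with 35 below 0, and -0.02 for the hosts, with 19 below 0. Snhg1 read 7.69, 7.68, 7.56 and 7.38 in control cells and 7.58, 7.44, 7.17 and 7.33 with dsDNA, moving less than its snoRNA Snord22. Snhg18 read 6.58, 6.43, 5.83 and 6.12 in control cells and 6.65, 5.77, 5.38 and 5.61 with dsDNA. Its mutant lines were lowest in both treatments, as were those of its snoRNA Snord123, which read 7.94, 8.02, 7.06 and 7.19 and then 7.59, 7.39, 6.99 and 7.04.

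**Figure D4:**
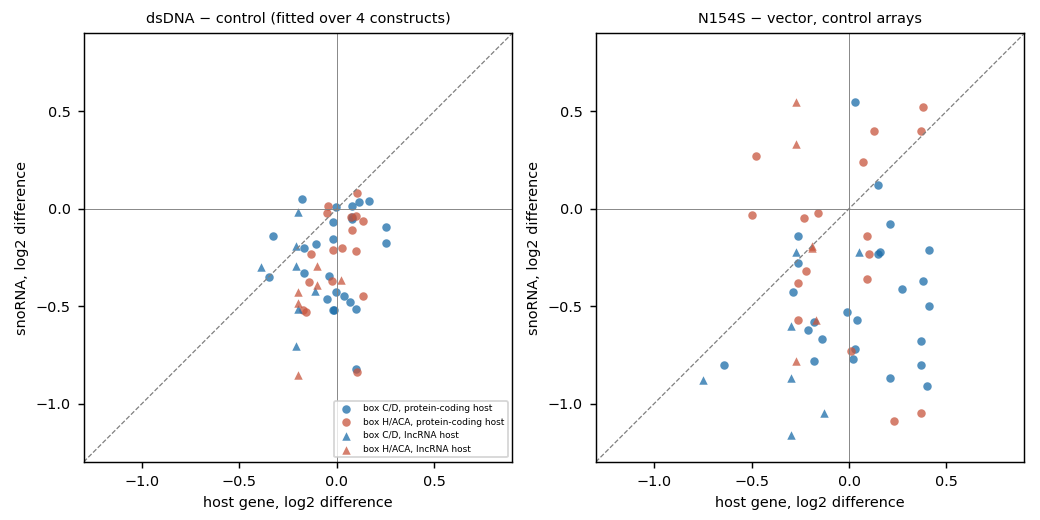
Log2 difference of each of 55 snoRNAs (vertical axis) against that of its host gene (horizontal axis), for dsDNA against control fitted over 4 constructs (left) and N154S against vector among control arrays (right); circles are protein-coding and triangles long non-coding hosts, blue is box C/D, red is box H/ACA, and the dashed line marks equal differences. In the left panel 46 of 55 points lie below the dashed line, and in the right panel 41 do.

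SnoRNAs of 1 non-coding host differed among themselves. From 2410006H16Rik, Snord49a had a fitted dsDNA difference of -0.70, Snord65 of -0.29 and Snord49b of -0.19, and all 3 read lower in N154S than in vector control cells, by 1.16, 0.87 and 0.60. From Snhg12, the fitted dsDNA difference was -0.86 for Snora44, -0.48 for Snora16a, -0.43 for Snora61 and -0.02 for Snord99. In N154S against vector control cells the same 4 differed by 0.55, -0.78, 0.33 and -0.22, so that Snora44 and Snora61 were higher where Snora16a was lower. Snhg12 itself differed by -0.20 with dsDNA and by -0.27 in N154S control cells.

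Among protein-coding hosts with 2 snoRNAs, some pairs differed and some were close. In Gnl3 the fitted dsDNA difference was -0.82 for Snord69 and -0.51 for Snord19, and in N154S against vector control cells it was -0.87 and -0.08. Snord19 had a mean of 4.64, near the median of gene means (4.45), and Snord69 had a mean of 9.03. In Nop58, the gene of a box C/D core protein, Snord11 and Snord70 had dsDNA differences of -0.05 and -0.04, while in N154S control cells they read lower by 0.80 and 0.68, a close pair in both. In the ribosomal protein gene Rpl3, Snord43 and Snord83b had fitted dsDNA differences of -0.20 and -0.33, and differed by -0.58 and -0.78 in N154S control cells. By construct their dsDNA differences had opposite signs in N154S cells (-0.53 and 0.15) and in R284S cells (0.47 and -0.44). In Kansl2, Snora34 and Snora2b differed by -1.05 and 0.40 in N154S control cells. In Ncl, the gene of nucleolin, Snord82 and Snora75 differed by -0.37 and 0.52 there. Snora2b and Snora75 are below the median of gene means, and the snoRNAs of these 5 hosts other than Snord11, Snord19, Snord69, Snord82 and Snora34 were named after their values were seen, as were Snora61, Snora7a, Snora69, Snord52, Snord65 and Snord73a.

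Several snoRNAs lay in ribosomal protein genes, and they did not all move alike. Snord35a, in Rpl13a, differed by -0.33, -0.33, -0.09 and -0.32 with dsDNA in the 4 constructs in the same order. Snord16a, in Rpl4, read 10.38, 10.45, 9.61 and 10.10 in control cells and 9.98, 9.82, 9.51 and 9.43 with dsDNA. Snord15a, in Rps3, read 8.42, 8.83, 7.75 and 8.46 in control cells and 7.95, 8.08, 7.73 and 7.63 with dsDNA. Snord58b, in Rpl17, read 8.52, 8.61, 7.61 and 8.20 in control cells and 7.92, 8.15, 7.84 and 7.65 with dsDNA. In all 3, the N154S control array was the lowest of the control arrays and lay below some dsDNA arrays of other lines. The hosts Rps3 and Rpl4 moved by less, Rps3 between 10.34 and 10.54 and Rpl4 between 11.97 and 12.16 over all 8 arrays. The third host, Rpl17, read between 4.83 and 5.79. It was higher than in vector control cells by 0.4 in N154S and 0.96 in R284S control cells, where Snord58b was lower. Snora41, a dim probe set in the elongation factor gene Eef1b2, read 4.49, 4.37, 4.47 and 4.01 in control cells and 4.21, 4.85, 4.0 and 3.43 with dsDNA, lowest in R284S in both treatments. Snora7a, in Rpl32, was lower with dsDNA by 0.61, 0.50, 0.47 and 0.54, with a fitted difference of -0.53 (SE 0.0818, limma adjusted p 0.448). By contrast, Snord73a, in Rps3a1, differed by -0.26, 0.09, 0.14 and 0.07. Snora33, in Rps12, differed by -0.04, -0.22, 0.24 and -0.07, higher with dsDNA in N154S cells alone. Snord43 differed by -0.44, -0.31, -0.53 and 0.47, and Snora69, in Rpl39, by -0.13, -0.79, -0.70 and 0.13. Both were higher with dsDNA in R284S cells alone.

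Genes of proteins that form or process snoRNA particles did not pass the threshold in any of the 8 fitted comparisons. Few genes passed at all, so this says little about them. For dsDNA, for the interaction and for N154S against hSTING cells 0.0% of all genes were called. The largest share was 1.02% in each direction, for R284S against vector cells. This covered 3 measured box C/D core genes of 4 listed, 4 of 4 box H/ACA core genes, 11 of 12 assembly factors, 8 of 9 processing and export factors, and 15 of 15 genes of ribosomal RNA synthesis and the U3 particle. Their median fitted differences in N154S against vector cells were 0.215, -0.0725, 0.085, 0.405 and 0.155, in the same order. Nop56, a box C/D core protein, read 10.14, 10.20, 10.41 and 10.08 in control cells and 10.03, 10.33, 10.19 and 9.85 with dsDNA. Dkc1, which encodes dyskerin, read 7.27, 7.44, 7.69 and 7.32, then 7.23, 7.70, 7.80 and 7.25. Neither was lowest in N154S control cells, where box C/D snoRNAs were. Other listed genes were, among them Nop10 of the box H/ACA core (9.1) and Imp3 of the U3 particle (8.67). Of the processing and export genes, the 5' exonuclease gene Xrn1 read higher with dsDNA in each construct, by 0.35, 1.02, 0.52 and 0.43. Xrn2 and Tgs1 were also higher in each, as were 9.82% of all genes. Exosc10 was lower in each, by 0.1, 0.29, 0.18 and 0.07, as were 10.4% of all genes.

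Some other small RNAs read lower in the mutant lines too, and of the Y RNAs, Cajal body RNAs, U RNAs, 5S RNA and other listed small RNAs apart from microRNAs only the Y RNAs passed. The Y RNAs Rny1 and Rny3 fell in N154S against vector cells by 1.31 and 1.74 on the log2 scale (SE 0.217 and 0.221, limma adjusted p 0.0433 and 0.0191), 2 of 2 measured. In R284S against vector cells Rny3 fell by 1.70 (SE 0.221, limma adjusted p 0.0162), and Rny1 differed by -0.91 (limma adjusted p 0.105). Rny3 read 9.35, 9.28, 7.31 and 7.82 in vector, hSTING, N154S and R284S control cells and 8.71, 8.44, 7.27 and 6.85 with dsDNA, so that vector and hSTING cells lay above both mutants in each treatment. The 5S ribosomal RNA n-R5s136 read 9.58, 10.05, 8.08 and 8.89 in control cells and 9.34, 8.90, 8.59 and 8.48 with dsDNA, but its difference of -1.12 in N154S against vector cells did not pass (SE 0.334, limma adjusted p 0.193).

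Among 472 microRNA genes, Mir1983 fell in N154S and in R284S against vector cells by 1.28 in each (SE 0.162, limma adjusted p 0.0189 and 0.0146) and in R284S against hSTING cells by 1.05 (SE 0.162, limma adjusted p 0.0398). Mir139 fell in R284S against vector cells by 0.83 (SE 0.129, limma adjusted p 0.0274). These are 1 of 472 in N154S and 2 of 472 in R284S against vector cells, below the 0.609% and 1.02% of all genes called lower. No other microRNA gene passed in any comparison, and the median over all 472 lay within 0.06 of 0 in each of the 8 fits.

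U3 (Rnu3a), the box C/D RNA that opens the processing of the ribosomal RNA precursor, read 5.71, 6.05, 5.27 and 5.83 in control cells and 5.60, 5.71, 5.49 and 5.57 with dsDNA. It was lowest in N154S control cells, as box C/D snoRNAs were, with a fitted difference of -0.28 from vector cells (SE 0.160, limma adjusted p 0.490). Rpph1, the RNA of ribonuclease P, read 11.24, 11.45, 10.63 and 11.15 in control cells and 11.06, 11.07, 11.03 and 10.92 with dsDNA, in a like order. Rn7sk stayed between 12.90 and 13.14. Of 5 Cajal body RNAs 0 passed, and their median fitted dsDNA difference was -0.29. Terc, the telomerase RNA, and Scarna2 read higher in N154S than in vector control cells, by 0.20 and 0.38. So the N154S control array gave the lowest of the 8 readings for Rny1, the 5S RNA and Rpph1. Rny3 was lowest there among control arrays (7.31), but read 7.27 and 6.85 in N154S and R284S cells with dsDNA. The low reading of the N154S control array was not shared by Terc or Scarna2. Against vector control cells, U3 differed there by -0.44, Rnu12 by -0.39, Scarna10 by -0.6 and Scarna6 by -0.47. Scarna17 differed by -0.04, and Scarna8, a dim probe set, by 0.2. Rn7sk was also lowest on that array, but differed by only -0.12. The part of these RNAs in the snoRNA differences was not tested.

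**Figure D5:**
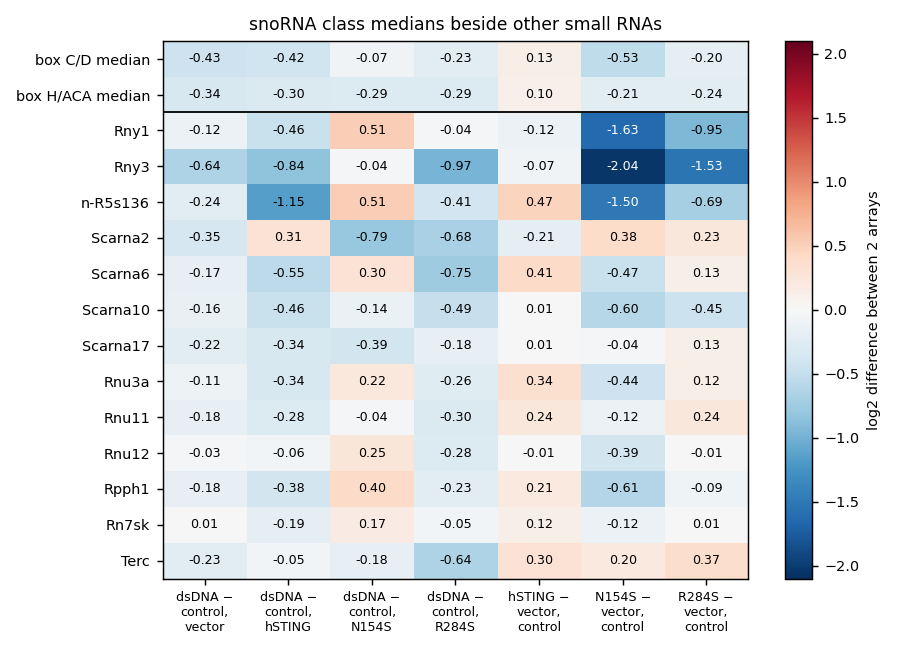
Log2 difference between 2 arrays (colour and printed value) for the medians of the 2 snoRNA classes and for 13 other small RNAs, with dsDNA minus control in 4 constructs and each STING line minus vector among control arrays in columns. N154S control cells show -2.04 for Rny3, -1.63 for Rny1 and -1.5 for n-R5s136 beside -0.53 for the box C/D median. Of the Cajal body RNAs, Scarna2 shows 0.38 there and Scarna10 shows -0.6.

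Fibroblast markers also moved between the lines. Of the 10, 3 fell in N154S and 5 in R284S against vector cells, where 0.609% and 1.02% of all genes were called lower, with median fitted differences of -0.65 and -0.88, while 0 of 5 macrophage markers passed. Each line was 1 population read on 1 array per treatment, so a difference of construct, of population, of RNA preparation and of array cannot be told apart. All snoRNAs of 1 array came from the same RNA sample, so the counts of snoRNAs given here are not counts of independent readings. A probe set within a snoRNA reads the mature RNA together with any unspliced host RNA, and their shares were not tested.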

How the data were processed

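Gene signals of 8 samples were read as deposited by the authors, on a log2 scale with 2 decimals. Per the submitters' processing notes the arrays were processed with Affymetrix Expression Console 1.3.1.187. The algorithm was not named, and array-wide values had been brought to nearly 1 distribution. Per the labels, a column kit yielded the RNA, which was labelled for whole-transcript arrays. A log2 signal has no true zero, and the number of arrays limits the precision.

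Of 41345 probe sets, 23521 had 1 gene symbol, 1814 several and 16010 none listed. Of those with several symbols, 43 name a snoRNA together with other symbols and were not members. The highest-mean probe set per symbol gave 22180 genes. limma 3.58.1 in R 4.3.3 fitted construct and treatment as additive terms (3 residual and 4.03 prior degrees of freedom), and p-values were adjusted by Benjamini-Hochberg over all genes, with 0.05 as threshold. Its residual holds any unevenness of the dsDNA difference between constructs. A second fit had an interaction term (2 residual degrees of freedom). The additive fit was tested on simulated dsDNA differences of known size. Differences between 2 arrays were counted at 2-fold or more with the brighter array at least at its median. Other genes of like signal are those with a mean between the quartiles of the snoRNA means.

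Named snoRNAs were those past the limma threshold, those past 2-fold (up to 5 in each direction and comparison), the most variable up to 20, the 5 of highest signal in each class, and a panel of 24, of which 9 were measured. That gave 35 names. Members, lists and rules were chosen with earlier results of these data known. Alternatives were limma's trend and robust variances, a filter on dim genes, centring, quantile and cyclic loess normalization, means over probe sets, other fold thresholds and leaving out each construct.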

Additional observations from a re-analysis of the deposited data

Results flagged for a closer look

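For 4 snoRNAs, all box C/D, the dsDNA difference had one sign in vector cells and the other in all 3 STING lines, as it did for 13.5% of all genes, so that the share of snoRNAs was below the share of genes. Snord53 differed by -0.59 in vector cells and by 0.04, 0.13 and 0.05 in hSTING, N154S and R284S cells, which sets vector cells apart from the mean of the others by -0.66. Snord73a differed by -0.26 in vector cells and by 0.09, 0.14 and 0.07 in the others, a gap of -0.36. Snord72 differed by 0.01 in vector cells and by -0.49, -0.26 and -0.66 in the others, a gap of 0.48. Snord88c differed by 0.11 in vector cells and by -0.13, -0.37 and -0.23 in the others, a gap of 0.35. The limma interaction fit gave unadjusted p-values of 0.0175 for Snord53, 0.0941 for Snord72, 0.128 for Snord73a and 0.156 for Snord88c, and adjusted p-values of 0.994 for all 4, so none passed. Snord53, Snord73a and Snord88c are named here because of these values.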

How the results depend on the processing

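The class medians of the 10 comparisons of 2 arrays kept their sign under centring, quantile and cyclic loess normalization, the filter on dim genes and means over probe sets, except the box H/ACA median of R284S against N154S control cells. In size, 2 of the others moved by over 1.5 times: box C/D with dsDNA in N154S cells, from -0.07 to -0.025 by quantile and -0.0152 by cyclic loess normalization, and box H/ACA in N154S against vector control cells, from -0.21 to -0.35 with the filter. The median that turned was -0.005 and became 0.005 with centred arrays and 0.045 with the filter. Counts of snoRNAs that passed limma moved more. The shares of all genes called under these alternatives, and at 1.5-fold in either direction, are not given. The counts therefore do not show whether snoRNAs gained calls more than other genes did. With trend and robust variances they were 7 for N154S and 7 for R284S against vector, 3 for N154S and 5 for R284S against hSTING, and 1 for dsDNA (Snord13), in place of 0, 1, 0, 0 and 0. Snord22 and Snord49a were among those 7 in both mutant comparisons against vector. With the filter on dim genes they were 4 and 2 against vector and 4 for R284S against hSTING. Centring gave 2 for R284S against vector and 1 against hSTING, and cyclic loess 1 against hSTING. Leaving out a construct gave 0 to 1 for N154S (1 without hSTING) and 0 to 2 for R284S against vector (2 without hSTING and 0 without N154S). The single call, Snora20, was lost without the N154S arrays (-0.70, limma adjusted p 0.108, from 0.0366 to 0.108 over the alternatives that tested it). The counts at 1.5-fold or more in either direction were 5, 24 and 11 for hSTING, N154S and R284S against vector, 33 and 13 for N154S and R284S against hSTING, 4 for R284S against N154S, and 17, 22, 6 and 11 for dsDNA in vector, hSTING, N154S and R284S cells. Chosen after seeing the data, leaving out the N154S pair raised the snoRNAs lower with dsDNA in every construct from 33 to 48. The construct term pairs the 2 arrays of each construct, so the dsDNA fit is a paired analysis. The labels give no replicate numbers for another block. With 1 array per construct and treatment, no spread between cultures was measured.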

Other observations

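The 43 probe sets that name a snoRNA together with other symbols were read as a group outside the comparisons. Of these, 16 belong to Snord116, the snoRNA cluster of the Prader-Willi region, and hold identical values, so they count as 1 reading. It was 3.77, 4.38, 3.67 and 3.78 in vector, hSTING, N154S and R284S control cells and 4.42, 4.10, 4.29 and 4.5 with dsDNA. It was thus higher with dsDNA in 3 constructs and lower in hSTING cells, the reverse of Snora44. All 4 control readings lay below the median of gene means, 4.45. The other 27 probe sets had median dsDNA differences of -0.18, -0.14, -0.08 and -0.09 in the 4 constructs, lower in 22, 19, 14 and 20 of 27.

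Among all genes, those lower by 0.5 or more with dsDNA in each construct were Snord13, the endothelin gene Edn1, the histone gene H2ac21 and Mir5123. Those higher by as much were Hmox1, Gclm, Gclc and Slc7a11, genes of the antioxidant response. Both lists hold 4 of 22180 genes (0.018%), and the genes outside the snoRNAs were named after their values were seen. H2ac21 differed by -0.59, -0.54, -0.55 and -0.53 in the 4 constructs. Mir5123 differed by -1.62, -0.75, -1.13 and -1.07.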
